A study of Homo sapiens with 36 samples.

Results

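The cytosolic HSP70 chaperones and the nucleotide exchange factors that serve them were followed in human HEK293T cells exposed to arsenite or hydrogen peroxide. The family was taken by gene name as *HSPA1A*, *HSPA1B*, *HSPA1L*, *HSPA2*, *HSPA4*, *HSPA4L*, *HSPA6*, *HSPA7*, *HSPA8* and *HSPH1*, 10 of the 61587 genes in the count table, and all 10 were found there. HEK293T is an established line derived from human embryonic kidney. Every library came from cells in which *TXNL1*, the gene for a thioredoxin-like protein that binds the proteasome, had been knocked out (KO). Per the study's methods, the KO cells were single-cell clones, and TXNL1 was put back by lentivirus from a CMV promoter, so no library holds unedited parental cells. The 4 lines carried an empty vector, WT TXNL1, D162R R234D TXNL1 (deficient in proteasome binding) or SxxS TXNL1 (without the catalytic cysteines of the thioredoxin domain). Each line was untreated (given DMSO, according to the labels) or given arsenite at 100 µM or hydrogen peroxide at 600 µM over 6 h, doses and time that the methods state and the labels do not. With 3 replicates of each combination there were 12 groups and 36 libraries. Per the methods each treatment was given in triplicate to cells in culture plates. Whether the replicates came from separate passages or were treated in parallel is not stated, so p-values measure the spread between replicate cultures of unstated independence.

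HSP70 proteins hold short hydrophobic stretches of unfolded or unfinished proteins in cycles of ATP binding and hydrolysis. J-domain proteins bring the client and set off hydrolysis, and exchange factors release ADP so that the client is let go. *HSPA8* encodes the constitutive form, HSC70, while *HSPA1A*, *HSPA1B* and *HSPA6* encode forms known for their induction by heat and other proteotoxic stress. *HSPA1L* and *HSPA2* are best known from the testis, and *HSPA7* is annotated as a pseudogene next to *HSPA6*. *HSPH1*, *HSPA4* and *HSPA4L* encode the large HSP110-type relatives that act as exchange factors for HSP70. The transcription factor HSF1, which is freed when HSP70 and HSP90 are occupied by misfolded proteins, binds heat shock elements, repeats of the letters GAA and their complement TTC in alternating orientation. Arsenite is a thiol-reactive oxidant that is known to evoke this heat shock response.

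The promoters are shown for *HSPA6*, which had the largest change of the members that could be tested, for the near-identical pair *HSPA1A* and *HSPA1B*, and for *HSPH1*, with capitals marking every match to GAANNTTC or TTCNNGAA on either strand. They are the 250 bases before the RefSeq start of each gene in GRCh38.p14, written 5′ to 3′ on the strand of the gene. For *HSPA6* the window is chr1:161524290-161524539 on the plus strand, for *HSPA1A* chr6:31815293-31815542 and for *HSPA1B* chr6:31827488-31827737, both on the plus strand, and for *HSPH1* chr13:31162389-31162638 on the minus strand.
HSPA6: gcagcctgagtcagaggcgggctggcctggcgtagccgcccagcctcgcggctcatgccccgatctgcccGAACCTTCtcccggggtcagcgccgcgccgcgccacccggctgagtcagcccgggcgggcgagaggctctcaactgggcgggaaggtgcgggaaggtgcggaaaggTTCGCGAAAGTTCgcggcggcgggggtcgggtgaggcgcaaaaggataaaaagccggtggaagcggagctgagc
HSPA1A: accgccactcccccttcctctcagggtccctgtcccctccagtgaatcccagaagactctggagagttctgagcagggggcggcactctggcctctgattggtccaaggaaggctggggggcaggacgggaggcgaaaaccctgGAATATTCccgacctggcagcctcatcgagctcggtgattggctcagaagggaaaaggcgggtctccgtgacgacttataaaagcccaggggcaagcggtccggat
HSPA1B: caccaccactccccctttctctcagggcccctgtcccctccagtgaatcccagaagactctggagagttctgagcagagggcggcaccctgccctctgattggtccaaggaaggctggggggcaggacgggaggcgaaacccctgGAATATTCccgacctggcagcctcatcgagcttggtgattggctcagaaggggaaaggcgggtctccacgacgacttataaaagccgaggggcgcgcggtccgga
HSPH1: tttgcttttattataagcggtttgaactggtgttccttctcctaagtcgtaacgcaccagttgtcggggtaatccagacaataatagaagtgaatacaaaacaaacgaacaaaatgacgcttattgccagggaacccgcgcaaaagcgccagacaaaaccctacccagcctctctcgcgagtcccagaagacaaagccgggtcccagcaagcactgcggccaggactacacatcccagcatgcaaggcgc
A pair of further stretches of 30 bases carry the matches of *HSPA8*, at chr11:123062345-123062374 (distal) and chr11:123062170-123062199 (proximal), both on the minus strand.
HSPA8 distal: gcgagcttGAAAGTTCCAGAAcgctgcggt
HSPA8 proximal: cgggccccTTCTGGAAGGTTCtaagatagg

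The longer run of 3 alternating units (GAANNTTCNNGAA or TTCNNGAANNTTC) occurred once upstream of *HSPA6*, at 62 to 74 bases before the start, and in both stretches of *HSPA8*, at 43 to 55 and at 218 to 230 bases. For *HSPA8* the RefSeq start is not the only one annotated, since 216 of the 250 bases of its window overlap annotated untranslated exon sequence in GENCODE 44. Of 35116 RefSeq promoter windows of the same 250 bases, 155 (0.441%) held such a run. The shorter match of 2 units, which each longer run contains 2 times, occurred in 4067 windows (11.6%). It was found 3 times for *HSPA6*, 4 times for *HSPA8*, once each for *HSPA1A*, *HSPA1B* and *HSPA1L*, and once in 1 of the 3 windows listed for *HSPA4L*. *HSPA1L* lies head to head with *HSPA1A*, and the matches of these neighbours are the same GAATATTC read from either side. The windows of *HSPH1*, *HSPA2* and *HSPA4* held none. Windows were listed for 9 of the 10 members and not for *HSPA7*. A match of letters is a description of the sequence and not of binding.

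How far counts can be assigned to single members differed over the family. Of the 100-base stretches in the exons of *HSPA1A*, the length of one sequenced read, 72.3% also occurred letter for letter in *HSPA1B*, and 68.9% of those of *HSPA1B* occurred in *HSPA1A*. Reads were paired, so such shares describe single reads and can overstate the part of whole fragments that fits both copies. Their transcripts were 96.0% identical over 2391 aligned bases, and their upstream windows 94.4%. *HSPA6* shared 27.8% of its stretches with *HSPA7*, and *HSPA7* shared 34.4% of its own with *HSPA6*. A further 6.07% of *HSPA6* stretches also occurred in sequence not wholly inside the annotated exons of any member. Whether that sequence borders the annotated *HSPA7* was not tested. For *HSPA8* and *HSPA4L* 98.0% and 99.1% of stretches were unique in the genome, and for *HSPA1L*, *HSPA2*, *HSPA4* and *HSPH1* all were. *HSPA1A* and *HSPA8*, the inducible and constitutive forms, were 72.6% identical as transcripts. How the counting treated reads that fit more than 1 place is not given in the sources used here, so the division of counts within the pairs *HSPA1A* and *HSPA1B*, and *HSPA6* and *HSPA7*, is uncertain. A further 36.6% of the exon bases of *HSPA1B* lie in an overlapping lncRNA on the same strand (ENSG00000285565), and 15.1% of those of *HSPA8* in an antisense lncRNA and 2 snoRNAs.

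Libraries held 42072410 to 174119002 counts (median 66016833). *TXNL1* was at 28.6 to 31.7 CPM (counts relative to library sizes scaled by edgeR's TMM) in untreated vector cells and at 51.7 to 66.2 CPM in the untreated complemented lines, higher in each of them by edgeR's quasi-likelihood test. With arsenite it was at 67.9 to 71.8 CPM in vector cells and at 97.2 to 108 CPM in the complemented lines. With hydrogen peroxide it was at 30.8 to 32.2 and at 53.9 to 81.9 CPM. Of 6 genes chosen as HEK293T markers 4 averaged over 1 CPM, led by *VIM* at 503 CPM, and of 8 markers of other cell types 2 did, led by *COL1A1* at 14.0 CPM. The libraries WT arsenite replicate 1 and WT hydrogen peroxide replicate 2 stood apart, with a standard deviation over 12043 genes of the log2 difference from the group median of 0.530 and 0.606, in that order, against 0.0505 to 0.168 in the other 34. *HSPA4L* was at 93.2 and 85.7 CPM in these libraries and at 132 to 183 CPM in all others. Leaving out both was a choice made once the values were known, and its values stand beside the averaged changes, the makeup of the family and the counts they touch.

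In untreated cells the family was dominated by *HSPA8* and *HSPA1B*. Per kilobase of merged exons, on a CPM scale, *HSPA8* reached 752 to 874 (median 811) over the 12 untreated libraries and *HSPA1B* 517 to 672 (median 585). These ranges did not overlap, and *HSPA8* was the highest member in each line. *HSPA1A* followed at 62.0 to 210 (median 124) and *HSPA4* at 107 to 132 (median 119), and these ranges overlapped. *HSPH1* was at 36.5 to 41.0 and *HSPA4L* at 11.6 to 16.0, each apart from its neighbours. *HSPA1L* spread from 0.241 to 4.51 and overlapped both *HSPA2* (1.03 to 1.32) and *HSPA6* (0.327 to 0.753). *HSPA7* stood last, with 0 to 5 counts per library. These levels depend on the length used: by the longest annotated transcript in place of all merged exons, *HSPA8* averaged 1710 and *HSPH1* 63.5 in untreated libraries.

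**Figure D1:**
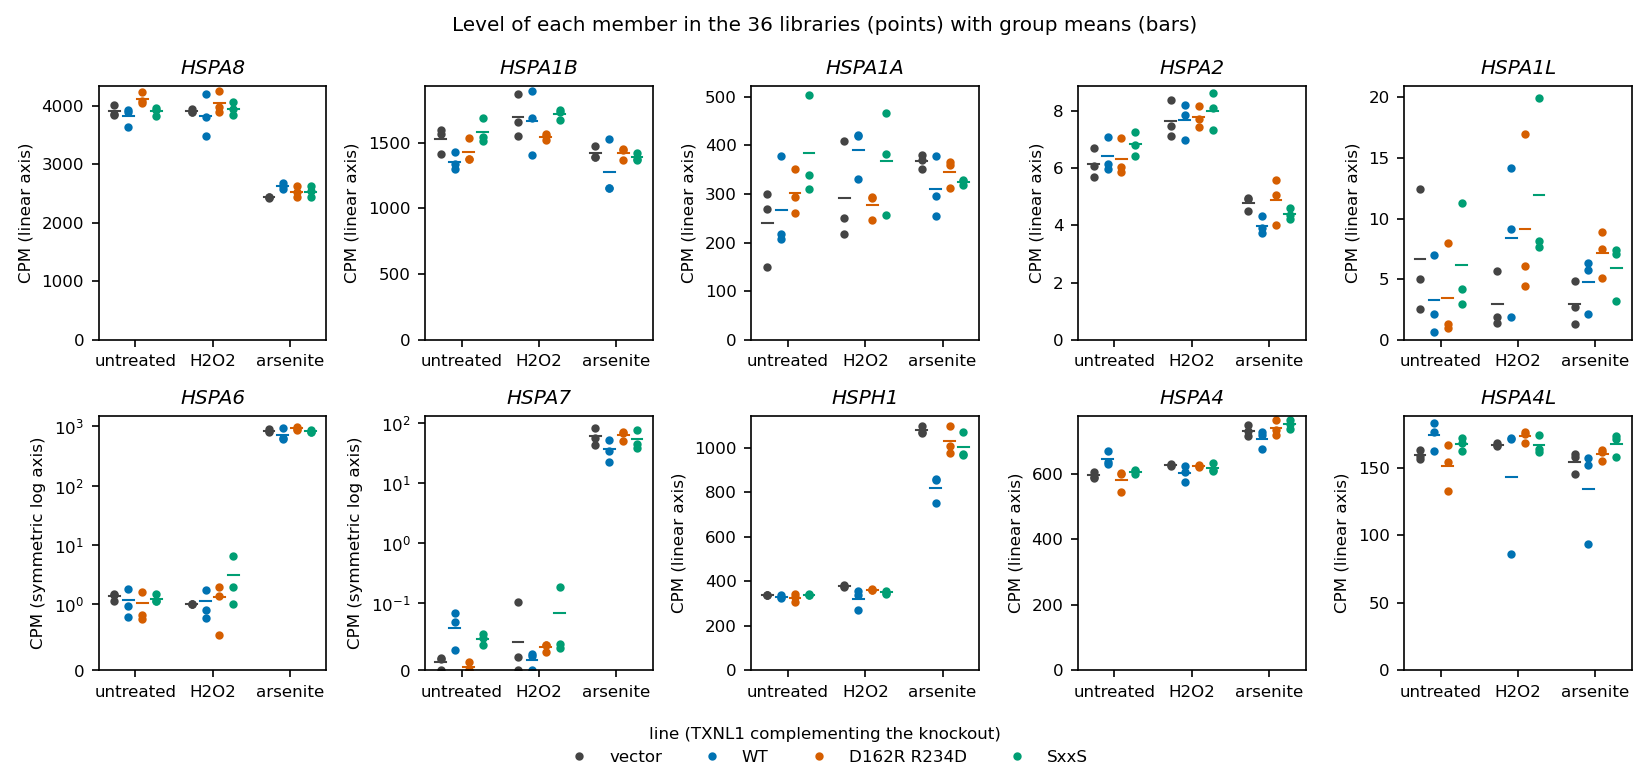
Level of each member in CPM (vertical axes; linear, or symmetric log for HSPA6 and HSPA7) in untreated, hydrogen peroxide and arsenite libraries, with 1 point per library, coloured by line, and a bar at each group mean. HSPA6 libraries lie between 611 and 989 CPM after arsenite and between 0.769 and 1.77 CPM in untreated cells, while HSPA8 lies lower after arsenite and HSPA1A points scatter within groups.

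Arsenite changed 5 of the 9 members that could be tested, averaged over the 4 lines. *HSPA6*, *HSPH1* and *HSPA4* rose, and *HSPA8* and *HSPA2* fell, while *HSPA1A*, *HSPA1B*, *HSPA1L* and *HSPA4L* did not pass the test. In the same comparison 68.8% of the 22486 tested genes were called, that is, had a p under 0.05 in edgeR after adjustment over all of them by Benjamini-Hochberg (37.4% higher and 31.5% lower), so the share of members called was no higher than that of all genes. Within lines, 6 members were called in vector cells (43.4% of all genes) and 5 each in WT (53.6%), D162R R234D (44%) and SxxS cells (43.6%). The 9 tested members had a median log2 fold change of 0.09, against 0.06 over all tested genes. With the libraries that stood apart left out, 73.7% of all genes were called, and the averaged log2 changes were 1.55 for *HSPH1*, 0.26 for *HSPA4*, -0.65 for *HSPA8* and -0.52 for *HSPA2*, all called, beside *HSPA6* and *HSPA1B*, whose values are given with their accounts. In bulk RNA, fewer cells that express a gene and less of its RNA per cell cannot be told apart.

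*HSPA6*, the strictly inducible HSP70 (also HSP70B′), made the largest rise of the tested members. It was at 0.769, 1.12 and 1.77 CPM (lowest, median and highest of 12 untreated libraries, 34 to 103 counts) and at 611, 859 and 989 CPM after arsenite (26356 to 141506 counts). Every arsenite library lay far above every untreated one. Averaged over lines, the log2 rise was 9.43 (standard error 0.24), a 692-fold difference, with an edgeR adjusted p of 4.06e-24. By line the rise was 9.23 for WT, 9.30 for vector, 9.39 for SxxS and 9.82 for D162R R234D cells, with standard errors of 0.48 to 0.49. WT arsenite libraries spread most, at 925, 631 and 611 CPM. The first of these is the library that stood apart, and without both such libraries the WT value was 8.98 and the average 9.37.

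*HSPA7*, the neighbouring copy of *HSPA6* on chromosome 1 (161606291 to 161608217), appeared in the same libraries. It had 0 to 5 counts in untreated libraries and 934 to 8105 counts after arsenite, where it was at 22.4 to 81.3 CPM (median 51.9). With 2 counts over the untreated vector libraries it missed the minimum of 10 and was not tested with the others. Over the libraries of a line, arsenite gave 15559 counts against 2 in vector cells, a ratio of 4645 relative to the unscaled library totals (95% exact interval of the counting error 1286 to 38359), and 12163 against 10 in WT cells, a ratio of 645 (350.4 to 1345), where the library that stood apart held 8105 of the arsenite counts. For D162R R234D cells it was 14001 against 1, a ratio of 12948 (2323 to 511444), and for SxxS cells 13837 against 10, a ratio of 1153 (627 to 2405). With edgeR's own expression filter instead, the averaged log2 fold change was 11.17, a value that depends on the prior count. *HSPA7* passed that filter only through its arsenite libraries, so the value is a description and no p is given. *HSPA7* took 3.42% to 8.85% of the counts on the pair after arsenite (median 5.34%). The range was 0% to 8.11% in untreated libraries (23 of 926 counts over all) and 0% to 9.62% with hydrogen peroxide (33 of 1363), so the ranges overlapped. Counts on stretches shared with *HSPA6* may be in these shares, and their part was not tested. Summed, *HSPA6* and *HSPA7* rose by 9.49 (standard error 0.24) on the log2 scale.

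*HSPH1*, the HSP110 exchange factor known to be induced by heat, rose in every line. It was at 306, 337 and 344 CPM in untreated libraries and at 751, 995 and 1101 CPM after arsenite (lowest, median and highest of 12). The ranges were apart by more than the whole spread of the untreated libraries. The averaged log2 fold change was 1.55 (standard error 0.04, edgeR adjusted p = 2.15e-25), a 2.94-fold rise. *HSPA4*, its constitutive relative, went from 543, 606 and 669 CPM to 675, 733 and 765 CPM. Here too no libraries overlapped, but the rise was 1.21-fold (log2 0.27, standard error 0.02, edgeR adjusted p = 1.44e-11). *HSPA4* had the smallest scatter in the family, a biological coefficient of variation of 4.72%, with less than 1% of tested genes below it. *HSPA4L*, the third large member, was at 132, 163 and 183 CPM and at 93.2, 158 and 173 CPM, with an averaged difference of -0.09 (95% interval -0.25 to 0.08, edgeR adjusted p = 0.35). In WT cells it was at 183, 176 and 161.9 CPM untreated and at 93.2, 152 and 157 CPM with arsenite. The log2 difference of -0.37 was not called (edgeR adjusted p = 0.0514). Under 5 of 9 other settings it passed the test there. Without the libraries that stood apart this was -0.19 with an adjusted p of 0.00561.

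*HSPA8*, the constitutive HSC70 and the most abundant member, fell. It was at 3646, 3931 and 4240 CPM in untreated libraries and at 2424, 2539 and 2690 CPM after arsenite, and no libraries overlapped. The averaged log2 fold change was -0.64 (standard error 0.03, edgeR adjusted p = 1.14e-18), which is 1.56-fold lower. Lines ranged from -0.70 in D162R R234D to -0.54 in WT cells. *HSPA2*, a member of low level here, went from 5.68, 6.29 and 7.26 CPM to 3.73, 4.44 and 5.57 CPM (259 to 552 counts and 163 to 632 counts). The 12 arsenite libraries lay below all 12 untreated ones, with a log2 difference of -0.51 over the lines (standard error 0.05, edgeR adjusted p = 9.16e-10). Within lines the falls of *HSPA2* were -0.35, -0.69, -0.37 and -0.64 for vector, WT, D162R R234D and SxxS. The call was lost in vector cells without vector untreated replicate 2 (edgeR adjusted p = 0.0528) and in D162R R234D cells without D162R R234D arsenite replicate 2 (0.0712).

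*HSPA1A* and *HSPA1B*, which encode the major stress-inducible HSP70 and lie side by side on chromosome 6 (31815543 to 31817946 and 31827738 to 31830254), did not pass the test on average. *HSPA1B* was at 1302, 1473 and 1691 CPM in untreated libraries and at 1156, 1392 and 1526 CPM after arsenite, with overlapping ranges. Its averaged log2 fold change was -0.10 (95% interval -0.19 to -0.0019, edgeR adjusted p = 0.0651). This call depends on the processing, since *HSPA1B* passed the test as lower under 7 of 9 other settings, with values of -0.10 to -0.15. *HSPA1A* was at 149, 297 and 505 CPM and at 256, 340 and 380 CPM, again overlapping, with an average of 0.20 (95% interval -0.06 to 0.45, edgeR adjusted p = 0.164). These intervals hold no rise of the size seen for *HSPH1*. *HSPA1A* was called in vector cells alone, where it was at 149, 270 and 300 CPM untreated and at 380, 352 and 371 CPM with arsenite (log2 0.62, standard error 0.25, adjusted p = 0.046). That call was lost in 5 of 9 other settings, among them the sum with *HSPA1B*, and in 15 of 36 analyses without 1 library. Without vector untreated replicate 1 the value was 0.37 with an adjusted p of 0.278. Between lines the *HSPA1A* response was not shown to differ, since the interaction of line and arsenite gave an edgeR adjusted p of 0.807. Without the libraries that stood apart, *HSPA1B* passed the test as a fall of 0.15 on the log2 scale (adjusted p = 8.47e-05).

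The division of counts between these copies varied between libraries of a group. *HSPA1A* took 8.55% to 23.0% of the counts on the pair in untreated libraries (median 16.1%), 12.3% to 21.0% with hydrogen peroxide (median 17.1%) and 18.1% to 21.0% with arsenite (median 19.9%). Untreated libraries were thus spread over the whole range and arsenite libraries over a narrow part of it. The lowest share was that of vector untreated replicate 1, with 9063 of 106038 counts, against 16.0% in the other 2 replicates of its group. The biological coefficient of variation was 21.2% for *HSPA1A* and 8.27% for *HSPA1B*. Summed before the test, the pair was at 1766 ± 95.3 CPM in untreated vector cells and 1787 ± 58.1 CPM with arsenite (SD, n = 3 each), and the averaged log2 difference was -0.05 (standard error 0.05, edgeR adjusted p = 0.446). With hydrogen peroxide the summed pair rose by 0.17 (standard error 0.05, edgeR adjusted p = 0.0324). *HSPA1L*, which starts from the other side of the *HSPA1A* promoter, was the most variable member at 67.1%, above 99.2% of tested genes. Its untreated libraries ran from 0.665 to 12.5 CPM and its arsenite libraries from 1.33 to 8.92 CPM, with an average difference of 0.09 whose 95% interval was -0.73 to 0.91.

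**Figure D2:**
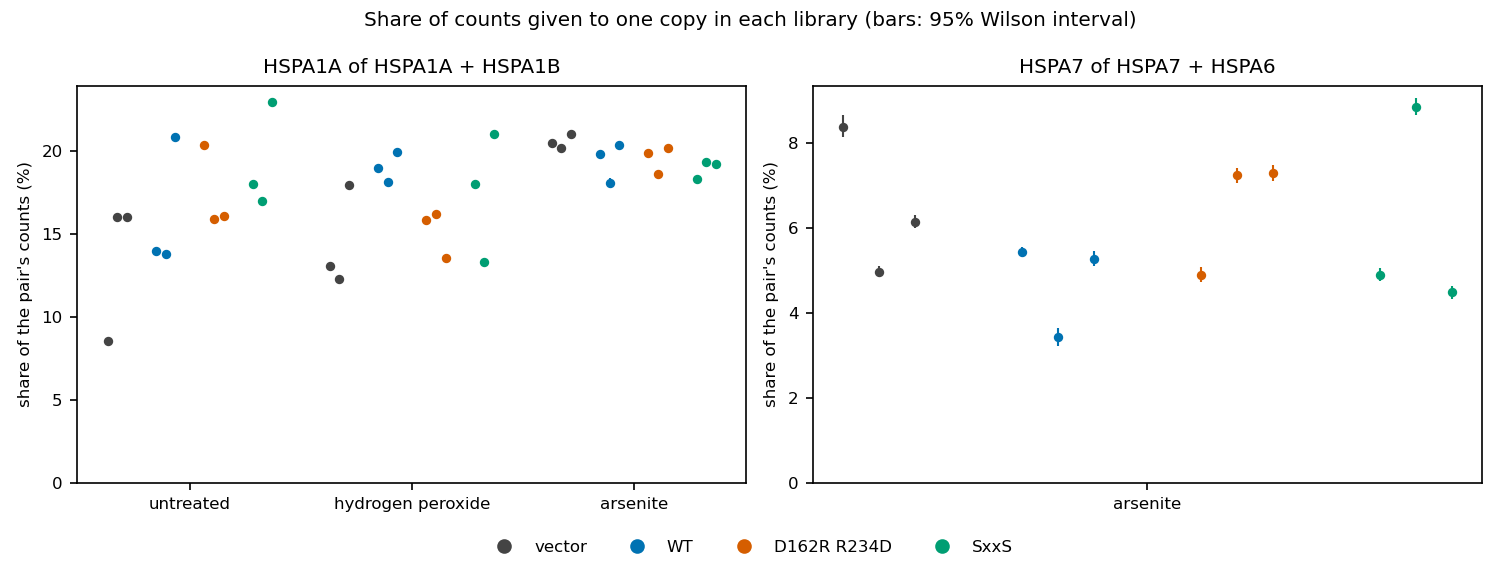
Share of counts taken by HSPA1A of the pair HSPA1A and HSPA1B in all libraries, and by HSPA7 of the pair HSPA6 and HSPA7 in arsenite libraries (vertical axes, percent), with 1 point per library, its line by colour, its treatment on the horizontal axis and 95% Wilson intervals as bars. The HSPA1A share spans 8.55% to 23.0% in untreated libraries and 18.1% to 21.0% after arsenite, and the HSPA7 share spans 3.42% to 8.85% after arsenite.

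Hydrogen peroxide changed 2 of the 9 tested members. Averaged over lines, *HSPA2* and *HSPA1B* were higher and no tested member was lower, against 12.1% of all tested genes called (6.78% higher and 5.3% lower). *HSPA2* went from 5.68, 6.29 and 7.26 CPM to 6.99, 7.78 and 8.63 CPM, with overlapping ranges (log2 0.28, standard error 0.05, edgeR adjusted p = 0.000428). *HSPA1B* went from 1302, 1473 and 1691 CPM to 1408, 1666 and 1895 CPM, also overlapping (log2 0.17, standard error 0.05, edgeR adjusted p = 0.0129). Within lines only *HSPA1B* in WT cells was called (1336, 1302 and 1429 CPM against 1408, 1895 and 1688 CPM, log2 0.30, adjusted p = 0.0447), where 8.06% of genes were. The number of members called in WT cells ranged from 0 to 2 when 1 library was left out and differed from 1 in 28 of 36 such analyses, and it was 0 without the libraries that stood apart. By edgeR 0 were called in vector (1.35%), D162R R234D (1.03%) and SxxS cells (1.02%), and by DESeq2 also 0, while 2, 3 and 2 had an unadjusted edgeR p under 0.05, as had 2542, 2408 and 2208 of the 22486 genes. Without the libraries that stood apart, *HSPA2* and *HSPH1* were called in vector cells, where 9.87% of all genes then were, and *HSPA2*, *HSPH1* and *HSPA4L* in D162R R234D cells, where 10.4% were. On average over lines 28.6% of all genes were then called, and the changes were 0.26 for *HSPA2* and 0.14 for *HSPA1B*, both called. *HSPA8* was at 3495, 3923 and 4252 CPM, with an averaged log2 difference of -0.0023 whose 95% interval reached from -0.06 to 0.05. For *HSPH1*, at 271, 357 and 383 CPM, it was 0.08 (interval 0.01 to 0.15, edgeR adjusted p = 0.149). The lowest *HSPH1* value was in the WT library that stood apart, and without both such libraries the rise was 0.10 with an adjusted p of 0.000188.

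*HSPA6* showed no rise with hydrogen peroxide that passed the test. It was at 0.533, 1.01 and 6.44 CPM (29 to 347 counts), with a log2 average of 0.30 (95% interval -0.19 to 0.79, edgeR adjusted p = 0.497). The highest value belonged to SxxS hydrogen peroxide replicate 2, with 347 counts, against 1.01 and 1.95 CPM in the other replicates of that group. The same library had 10 counts of *HSPA7*, the most outside the arsenite groups. In SxxS cells the log2 fold change of *HSPA6* was 1.30 (standard error 0.43, adjusted p = 0.18), and the groups overlapped.

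**Figure D3:**
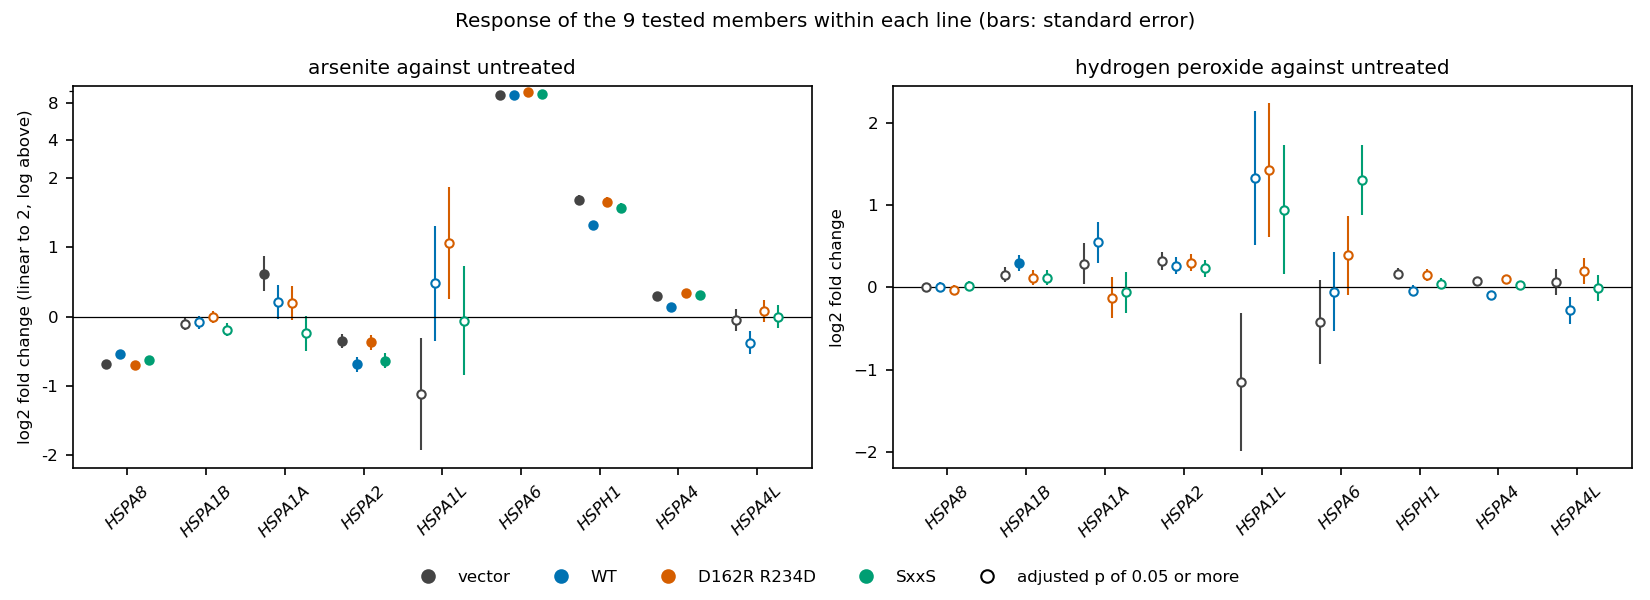
Log2 fold change against untreated cells of the 9 tested members (horizontal axis) in each line (colours), on a vertical axis that is linear up to 2 and logarithmic above it for arsenite and linear for hydrogen peroxide, with standard errors as bars, filled points where the adjusted p was under 0.05. HSPA6 lies between 9.23 and 9.82 in the arsenite panel, HSPH1 between 1.32 and 1.68 and HSPA8 between -0.70 and -0.54.

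Set directly against hydrogen peroxide, arsenite gave higher *HSPA6*, *HSPH1* and *HSPA4* and lower *HSPA2*, *HSPA8* and *HSPA1B*, while 68.7% of all tested genes were called (37.3% higher and 31.3% lower). The log2 differences were 9.13 for *HSPA6*, 1.48 for *HSPH1* and 0.25 for *HSPA4*. They were -0.79 for *HSPA2*, -0.64 for *HSPA8* and -0.27 for *HSPA1B*, with edgeR adjusted p-values of at most 8.59e-06. The 2 copies summed, *HSPA1A* and *HSPA1B*, were also lower (-0.21, adjusted p = 0.00067). *HSPA1A* alone was at 217 to 466 CPM with hydrogen peroxide and at 256 to 380 CPM with arsenite, a difference of 0.03 (interval -0.22 to 0.29). Without the libraries that stood apart, where 74.8% of all genes were called, *HSPA4L* was also lower (-0.11), and the 6 members above stayed called with values of 9.03, 1.45, 0.23, -0.78, -0.63 and -0.29 in that order.

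The complementing TXNL1 made no difference to the family that passed the test. In untreated cells 0 members were called for WT, D162R R234D or SxxS against vector, where edgeR called 0.196%, 0.0267% and 0.0178% of all genes, and DESeq2 called 0 as well. At an unadjusted p under 0.05 there were 1, 0 and 1 members, beside 1574, 702 and 745 of all genes. The members were *HSPA4* in WT (631, 669 and 636 CPM against 607, 591 and 588 CPM, log2 0.12, edgeR adjusted p = 0.532) and *HSPA1A* in SxxS (log2 0.68, edgeR adjusted p = 1.00). *HSPA8*, for example, differed from vector by -0.03 (95% interval -0.14 to 0.08) in WT, by 0.08 (-0.04 to 0.19) in D162R R234D and by -0.0025 (-0.11 to 0.11) in SxxS. Leaving out the libraries that stood apart, edgeR called 2.99%, 0.0756% and 0.142% of all genes in that order, and again no member. *HSPA4* in WT then had an edgeR adjusted p of 0.0507. With all libraries, the interaction of line and treatment was called for 0 members by edgeR and by DESeq2. Over all genes edgeR called 0 (0%) for arsenite and 154 (0.685%) for hydrogen peroxide, and at an unadjusted p under 0.05 there were 2 members and 1 member, beside 1432 and 1970 of all genes.

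*HSPH1* came nearest to a difference between lines after arsenite. It was at 1072, 1100 and 1067 CPM in vector cells, at 1101, 1010 and 979 CPM in D162R R234D cells and at 1069, 974 and 968 CPM in SxxS cells. In WT cells it was at 751, 854 and 861 CPM, below all 9 libraries of the other lines. The rise in WT cells was smaller than in vector cells by 0.37 on the log2 scale (standard error 0.10), with an edgeR p of 0.00083 that became 0.546 after adjustment over all genes. For the interaction over the 4 lines the p was 0.00303 and the adjusted p 0.644. Without the libraries that stood apart, the rise was 1.35 for WT against 1.55 for SxxS, 1.64 for D162R R234D and 1.66 for vector cells, and the interaction passed the test (adjusted p = 0.0203), where 46 of 22486 genes (0.205%) did. So this call depends on whether 2 libraries of the WT line, 1 of them in the arsenite group, are kept. *HSPA4* also rose least in WT cells, with a log2 rise of 0.13 against 0.30, 0.34 and 0.31 in vector, D162R R234D and SxxS cells (edgeR adjusted p of the interaction 0.706). Unlike *HSPH1*, its untreated WT libraries (631 to 669 CPM) lay above those of the other lines (543 to 613 CPM). After arsenite its WT libraries (675 to 729 CPM) overlapped those of the other lines (717 to 765 CPM). The rise of *HSPA4* in WT cells (edgeR adjusted p = 0.017) was not called with total counts, with no filter, with only the groups compared, or in 3 of 36 analyses without 1 library.

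With arsenite the makeup of the family shifted from *HSPA8* towards *HSPA6*. Of the summed level per kilobase, *HSPA8* made up 47.9 ± 2.03% in untreated and 28.1 ± 2.43% in arsenite libraries (SD, n = 12 each). *HSPA6* went from 0.0303 ± 0.00884% to 18.8 ± 1.59%, and *HSPH1* from 2.34 ± 0.127% to 6.27 ± 0.604%. *HSPA1B* held 34.4 ± 1.77% and then 29.2 ± 0.991%, and *HSPA1A* 7.24 ± 1.92% and 7.49 ± 0.552%. With hydrogen peroxide *HSPA8* made up 45.4 ± 1.97% and *HSPA1B* 36.7 ± 1.39%. The sum itself was 1700 ± 79.8 in untreated, 1791 ± 102 in hydrogen peroxide and 1869 ± 108 in arsenite libraries (CPM per kilobase of deposited length), with overlapping ranges. Divided by the length of the canonical transcript in place of all merged exons, which is 2264 against 4849 bases for *HSPA8*, the sums were 2663 ± 101, 2754 ± 136 and 2547 ± 104, and *HSPA8* fell from 65.4% to 44.0%. The direction of the change in the sum with arsenite thus depends on the length used. By canonical length *HSPA6* still grew, to 13.8%, and *HSPH1*, to 7.36%, while *HSPA1B* was at 21.97 ± 1.35% and 21.5 ± 1.09%, within its spread. Without the library that stood apart, the arsenite shares by deposited length were 28.2% for *HSPA8*, 18.7% for *HSPA6* and 6.43% for *HSPH1* (n = 11), and the sum was 1862 ± 109.9.

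**Figure D4:**
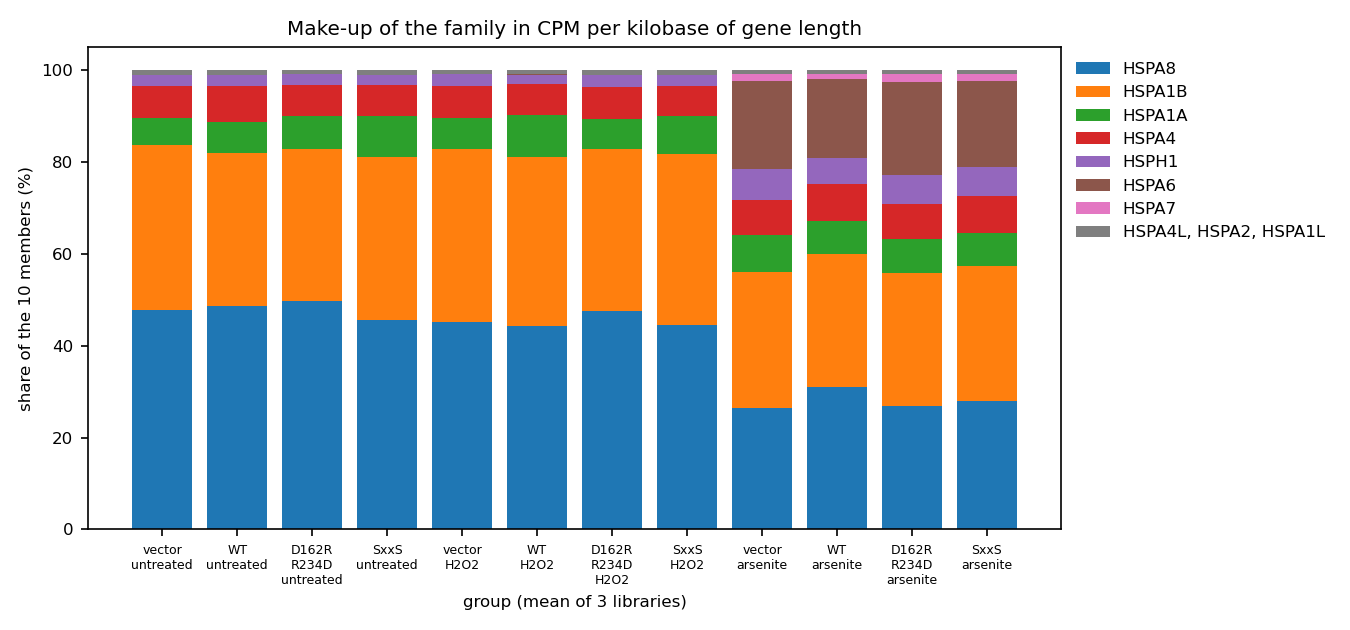
Makeup of the summed level of the 10 members (CPM per kilobase of deposited length, vertical axis as percent of the sum) in each of the 12 groups, as stacked bars of the mean of 3 libraries coloured by member, with HSPA4L, HSPA2 and HSPA1L joined in grey. Over the treatments HSPA8 falls from 47.9% to 28.1% of the sum with arsenite and HSPA6 grows from 0.0303% to 18.8%.

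The partners of HSP70 were described by class. Of 23 partner genes, all tested, arsenite raised 15 and lowered 4 on average over the lines (median log2 fold change 0.22, against 0.06 over all tested genes, of which 37.4% were higher and 31.5% lower). Among the 9 J-domain proteins, which deliver clients to HSP70, 7 rose and 1 fell. The J-domain proteins with the largest rises were *DNAJB1*, from 331 to 4233 CPM (log2 3.68, standard error 0.03), and *DNAJB6*, from 111 to 243 CPM (log2 1.13). *DNAJB5* fell by 0.30 and *DNAJA4* was not called (0.10). Among the 6 exchange factors outside the HSP110 type, *BAG3* rose from 60.9 to 931 CPM (log2 3.93, standard error 0.03) and *BAG1* from 50.5 to 109 CPM (log2 1.09), while *BAG4* and *BAG5* fell by 0.71 and 0.74. *STIP1*, which links HSP70 to HSP90, rose by 0.74, *ST13* rose by 0.07 and *STUB1*, a ubiquitin ligase that binds HSP70, was not called (0.16), and of the 2 genes of cytosolic HSP90, *HSP90AA1* rose by 0.68 and *HSP90AB1* by 0.85. Among the heat shock factors, *HSF2* rose by 0.20 from 52.0 to 59.7 CPM and *HSF4* by 0.59 from 0.430 to 0.645 CPM, while *HSF1* did not pass the test, at 135 and 141 CPM. With hydrogen peroxide 2 partners rose and 2 fell, with log2 fold changes of all 23 between -0.22 and 0.10, where 6.78% and 5.3% of all genes were called. With the libraries that stood apart left out, 16 rose and 4 fell with arsenite, with *STUB1* then called (0.07), and 3 rose and 5 fell with hydrogen peroxide.

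The HSP70 relatives of organelles and the ribosome moved in both directions with arsenite, and all 5 were called on average, where 68.8% of all genes were. They kept direction and call without the libraries that stood apart. *HSPA5* (BiP), the HSP70 of the endoplasmic reticulum, fell from 737 to 202 CPM (log2 -1.87, standard error 0.03), 3.65-fold lower. *HSPA13*, also of the endoplasmic reticulum, fell by 0.61, and *HYOU1*, the HSP110-type exchange factor of that compartment, fell by 0.44. *HSPA9* (mortalin), the mitochondrial form, rose by 0.42 from 736 to 986 CPM. *HSPA14*, which works at the ribosome, rose by 0.67 from 78.9 to 126 CPM. In the 2 libraries that stood apart *HSPA13* was at 24.0 and 33.3 CPM, below the other replicates of their groups (42.1 to 65.3 CPM).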

How the data were processed

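Per the labels, RNA of 36 HEK293T libraries was sequenced from strand-specific libraries. According to the methods, the authors aligned paired reads to GRCh38 with qAlign of QuasR and deposited raw counts per gene with a gene length. Treatment of reads with several places, strand and mates in counting is not given in the sources used here. All lengths of members equalled the merged exons of GENCODE 44; every sample column was matched to its sample.

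From the deposited counts, genes with at least 10 counts over the 3 untreated vector libraries (22486) were tested with edgeR 4.0.16 (R 4.3.3): TMM scaling, a quasi-likelihood fit with 1 mean per group over all 36 libraries, and Benjamini-Hochberg adjustment over all tested genes, called under 0.05. CPM used TMM-scaled library sizes. The script was run on simulated counts with the same scatter for every gene and no libraries that stood apart. That run checks the code and not the error rates in these data. Members, lists and tests were chosen with earlier results of these data known. All members and the 5 relatives of organelles and the ribosome were named whatever their values. Of each partner class up to the 2 highest and 2 lowest averaged arsenite changes were named. Alternatives were other scalings, filters and lengths, DESeq2 1.42.0, only the groups compared, summed copies, a replicate block and each library left out. The labels do not say what replicate numbers share, and of 24 pairs of same-numbered libraries of a line 8 had a correlation of deviations over 0.1 (range -0.50 to 0.54). Intervals on counts cover counting error only.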

Additional observations from a re-analysis of the deposited data

How the results depend on the processing

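Over 45 other analyses of each of 34 called fold changes, 1502 of 1530 kept direction and call, 28 lost the call and 0 turned. The number of members called for arsenite against untreated cells stayed within 1.5 times under all settings. With hydrogen peroxide in WT cells 0 members were called with DESeq2 size factors (1812 genes called over all, against 1813 as reported), with no filter (1070), with only the groups compared (1 gene over all) and without both libraries that stood apart (2020, chosen after seeing the data). With summed copies the number was 2 (1814), but there a called sum counts for both genes of its pair. Leaving out 1 library gave 0 to 2 in WT and 0 to 1 in SxxS cells. In vector cells, with 303 genes called over all as reported, 2 members were called with only the groups compared (2808 genes) and 2 without both libraries (2219). In D162R R234D cells, with 231 genes as reported, 3 were called without both (2328), and in the arsenite interaction 1 without both (46 genes against 0). Changes that turned were not called in the analysis reported, and the cause was not tested. For *HSPA4L* with arsenite in SxxS cells values were -0.022 (DESeq2 size factors), -0.040 (total counts), -0.0074 (filterByExpr), -0.036 (no filter), -0.024 (only the groups compared), -0.022 (DESeq2) and -0.016 (without both). *HSPA8* with hydrogen peroxide averaged 0.0014 (DESeq2 size factors), 0.010 (no filter) and 0.0014 (DESeq2), and *HSPA4L* 0.0049 (no filter) and 0.054 (without both). *HSPA1A* in arsenite against hydrogen peroxide was -0.0038 (total counts), -0.0052 (no filter) and -0.0076 (without both), and its sum with *HSPA1B* was -0.21 (summed copies). With summed copies the value of either gene is that of the sum of *HSPA1A* and *HSPA1B*. With arsenite this was 0.017 in vector, -0.030 in WT and 0.031 in D162R R234D cells and -0.046 on average. These were set against *HSPA1B*, *HSPA1A*, *HSPA1B* and *HSPA1A* alone, in that order, which are different quantities.

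Leaving out 1 library also turned uncalled values. The ranges with arsenite were -0.033 to 0.035 for *HSPA1B* in D162R R234D, -0.020 to 0.16 for *HSPA4L* in D162R R234D, -0.38 to 0.0017 for *HSPA1A* in SxxS, -0.39 to 0.72 for *HSPA1L* in SxxS, -0.025 to 0.041 for *HSPA4L* in SxxS and -0.046 to 0.48 for the *HSPA1L* average. With hydrogen peroxide they were -0.045 to 0.059 for *HSPA4L* and -0.020 to 0.013 for *HSPA8*, and for *HSPA1A* between the oxidants -0.016 to 0.12. With the replicate block, 62 of 63 fold changes kept direction and call, *HSPA1L* with arsenite in SxxS cells turned to 0.12, and each comparison kept its number of called members (6 for arsenite in vector cells, for example). Same-numbered libraries correlated over 0.1 in all pairs in 1 of 8 comparisons, hydrogen peroxide in D162R R234D cells, with 0 members called with or without the block, and 13 of 24 pairs correlated best with their own number. By the longest transcript, levels per kilobase were 127 and 154 for *HSPA4*, 1710 and 1099 for *HSPA8*, and 63.5 and 188 for *HSPH1* (untreated and arsenite), and 15.4 for untreated *HSPA4L*.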

Other observations

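Over the 12 group means of log2 CPM, the 3 genes outside the family whose pattern was most like that of *HSPA6* were *EGR1*, *DDX11* and *TRA2A* (Pearson's r of 0.999, 0.998 and 0.998). For *HSPH1* they were *ZSWIM6*, *CDKAL1* and *SCAF4* (0.998, 0.997 and 0.997), and for *HSPA8* they were *TMEM165*, *PGRMC2* and *SPTSSA* (0.996 each). The *HSPA1A* pattern had no such close match, with *ST6GALNAC5*, *SPRYD4* and *MFSD13A* at 0.81, 0.80 and 0.79. The 12 points fall into arsenite groups and others, and these values are a description over 15664 genes with no test.

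*HSPA1L* was highest in replicate 2 in 8 of 12 groups, in replicate 3 in 4 and in replicate 1 in 0. What replicate numbers share is not stated, and the pattern was noticed in the data and was not tested.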
